A study of Mus musculus with 45 samples.

Results

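LM1-LM and LM1 are mouse mammary tumour cell lines that stand in a direct line of descent, and the comparison here is of their mRNA in control medium. It rests on 6 of the 45 libraries of the series, 3 cultures of LM1-LM and 3 of LM1, which were taken by cell line and medium from the sample labels. Both lines go back to Myc310, a line established from a transgenic MMTV-cMYC mouse with multiple tumours, in which the mouse mammary tumour virus promoter drives the oncogene MYC in mammary epithelium. LM1 was grown out of lungs after Myc310 cells had been injected into the mammary fat pad, and LM1-LM was grown out of lungs after the same had been done with LM1. Cells were plated at 250000 per well, left for 24 h, and given control medium for 6 h before RNA was extracted. The medium for plating held serum, insulin, hydrocortisone and epidermal growth factor, and 3 further cultures of each line were given a medium without cysteine and cystine in place of the control medium. The cultures of a line are called technical replicates in the series' own design text, so every p-value below covers the spread between cultures of a line and not the spread between lines that might be derived independently. Cloning of either line is not mentioned in the sources used here, and a line grown from dissociated lung may hold many tumour cell clones.

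A metastatic line derived by passage through an animal carries the changes that its founding cells brought along, those selected in the host and those acquired in culture, and a comparison of a line with its parent records their sum. Tumour cells in the lung have to attach, degrade and build extracellular matrix. The genes that encode cell junctions, collagens, the enzymes that modify collagen in the endoplasmic reticulum, proteases and integrins therefore form the core of what is usually read in such lines. Desmosomes, the junctions that tie the keratin filaments of neighbouring epithelial cells together, are typical of epithelia, and fibrillar collagens are typical of mesenchymal cells.

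Counts on genes ranged from 19521444 to 24258746 in the 6 libraries. Pearson's r of log2 CPM, counts scaled to library size, was 0.992 to 0.993 between cultures of the same line and 0.987 to 0.989 between cultures of different lines. LM1-LM replicate 1 held fewer transcripts of the mitochondrial genome than any other of the 6 libraries, 14356 CPM in sum against 18318 and 18789 in the other 2 LM1-LM cultures and 18323 to 20771 in LM1. The cells had the keratins of simple epithelium, with Krt8 at 876 ± 10.7 CPM (SD, n = 3) in LM1 and 833 ± 15.5 CPM in LM1-LM. The defining epithelial adhesion genes Cdh1, which encodes E-cadherin, and Epcam were at the floor of 3 counts or fewer per library in both lines, among 15 of the 24 genes on the epithelial list. Vim, the intermediate filament gene of mesenchymal cells, was at 3747 ± 75.6 CPM in LM1 and 3934 ± 66.4 CPM in LM1-LM. Ptprc of leukocytes and Sftpc and Scgb1a1 of lung epithelium had no count in any of the 6 libraries, and Pecam1 of endothelium was at the floor.

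The difference between LM1-LM and LM1 was broad and mostly small. Of 13795 genes tested, 1504 (10.9%) passed an adjusted p of 0.05 in edgeR's quasi-likelihood test, 778 (5.64%) of them higher in LM1-LM and 726 (5.26%) lower. The median absolute log2 fold change of the called genes was 0.25, which is a 1.19-fold difference, and 1105 of them differed by less than 1.5-fold. At least 2-fold differences were called for 125 genes higher in LM1-LM (0.906%) and 141 lower (1.02%). Most of these genes had low levels. In the line with the higher level, 98 of the 266 genes were under 1 CPM, 132 between 1 and 10 CPM and 36 at 10 CPM or more, against a median of 24.4 CPM over all genes tested. The 2 lines' cultures did not overlap in 1441 of the 1504 called genes and in 3478 (25.2%) of all genes tested. The plot of fold change by level shows this shape, with the strong changes mostly at the low end and a narrow band of small called differences among abundant transcripts.

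**Figure D1:**
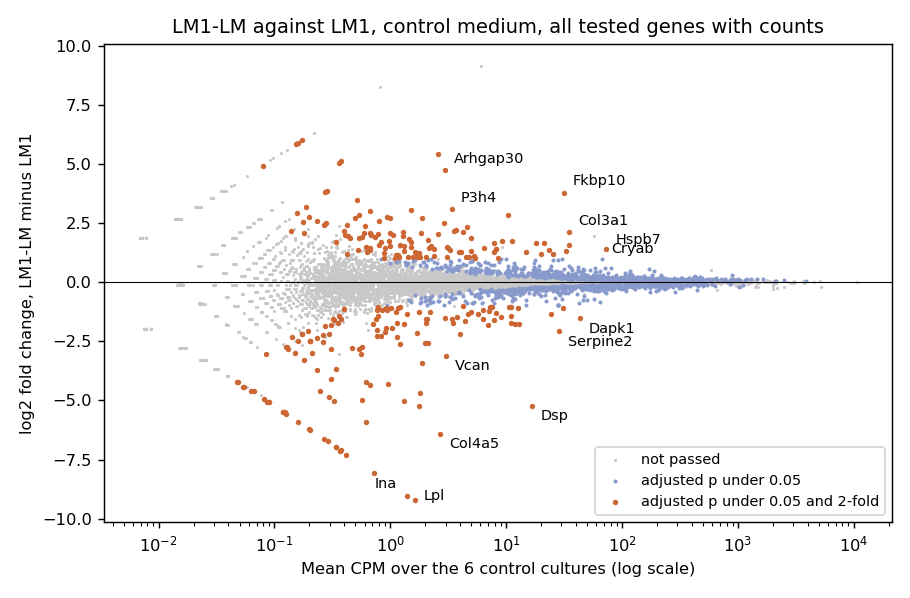
Each point is 1 of the 13577 tested genes with a count in the 6 control cultures, with its mean CPM on a log axis and its log2 fold change (LM1-LM minus LM1) from edgeR; blue points passed an adjusted p of 0.05 and orange points also differed at least 2-fold. Dsp lies alone among well-detected genes at the bottom, at -5.23, and Fkbp10 at the top right, at 3.79; the outer oblique lines of points at the left are genes with counts in a single line, whose fitted fold changes depend on the prior count.

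The largest increases by the rule for named genes included a pair of neighbours that encode proteins of the collagen-modifying machinery in the endoplasmic reticulum. Fkbp10 encodes FKBP65, a peptidyl-prolyl isomerase and collagen chaperone, and lies on chromosome 11 at 100415697 to 100424824 on the plus strand (GRCm38). Fkbp10 was at 3.51, 5.56 and 3.57 CPM in the 3 LM1 cultures and at 59.5, 58.3 and 58.9 CPM in the LM1-LM cultures. The LM1-LM values were tightly grouped and more than 10 times as high as any LM1 value. The log2 fold change was 3.79 ± 0.08 (SE), with an adjusted p of 4.4e-28 in edgeR's quasi-likelihood test. P3h4, whose product SC65 is a partner of the lysyl and prolyl hydroxylases in the same compartment, lies on the opposite strand at 100408456 to 100414836, and 860 bases separate the starts of the 2 genes, which are transcribed away from each other. P3h4 was at 0.67, 0.63 and 0.80 CPM in LM1 and at 6.80, 4.36 and 7.0 CPM in LM1-LM. Its log2 fold change was 3.1 ± 0.19 (adjusted p = 7.9e-15), and the 2 lines did not overlap. On its other side Fkbp10 overlaps Nt5c3b, on the opposite strand, which was at 45.5 ± 1.63 CPM in LM1 and 45.1 ± 2.50 CPM in LM1-LM (adjusted p = 0.95).

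P3h3, a prolyl 3-hydroxylase of collagen on chromosome 6, rose as well. It was at 9.85, 9.53 and 10.8 CPM in LM1 and at 32.9, 30.6 and 32.6 CPM in LM1-LM, a log2 fold change of 1.67 ± 0.07 (adjusted p = 1.6e-18). None of the other 9 lines compared had a mean level of P3h3 above 14.2 CPM. On a list of collagen-modifying genes that was drawn up after these values had been seen, 12 of 21 tested members were higher and 1 was lower, beside 5.64% and 5.26% of all genes, and the median log2 fold change was 0.12 against 0.00 over all genes tested. Apart from Fkbp10, P3h4 and P3h3 the increases were small. Serpinh1, the collagen chaperone HSP47, went from 608 ± 6.5 to 690 ± 5.4 CPM (log2 fold change 0.18 ± 0.02, adjusted p = 1.8e-09). The lysyl hydroxylase genes Plod1, Plod2 and Plod3 rose by 0.14, 0.15 and 0.15 on the log2 scale, and the prolyl 4-hydroxylase subunit genes P4ha1, P4ha2 and P4hb by 0.12, 0.21 and 0.12. LM1-LM replicate 1, which was low in mitochondrial transcripts, was the highest LM1-LM culture for 8 of the 12, and without it 10 members were higher and 1 lower. The member that fell was Bmp1, the protease that removes the C-terminal propeptide of fibrillar collagens, at a log2 fold change of -0.11 ± 0.03 (adjusted p = 0.0044).

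Among the collagens themselves the changes went both ways. On the list of collagens and laminins, 6 of 24 tested members were higher and 6 were lower, beside 5.64% and 5.26% of all genes. Col3a1, which encodes the fibrillar collagen type III, was at 12, 13.6 and 13.2 CPM in LM1 and at 59.4, 56.7 and 53.4 CPM in LM1-LM. Its log2 fold change was 2.12 ± 0.07 (adjusted p = 6.7e-21). The other chief collagens of fibroblasts stayed near the detection limit, Col1a1 at 0.25 ± 0.07 and 0.45 ± 0.34 CPM and Col1a2 at 0.29 ± 0.03 and 0.30 ± 0.06 CPM in LM1 and LM1-LM. Col8a1, a short-chain network collagen, rose from 26.7 ± 1.55 to 43.0 ± 2.17 CPM (log2 fold change 0.69 ± 0.07, adjusted p = 7.4e-09), and Col5a3 rose from 18.0 ± 0.73 to 24.0 ± 0.66 CPM (0.42 ± 0.05, adjusted p = 6.9e-07). Col4a5, which encodes a chain of basement membrane collagen on the X chromosome, was at 75, 130 and 132 counts in LM1 and at 2, 1 and 1 counts in LM1-LM. The basement membrane laminin genes Lama5 and Lamb1 fell by 0.32 and 0.25 on the log2 scale, and Lamb2 rose by 0.23. On the fibroblast list Col3a1 was the only called member of 6 tested, and without LM1 replicate 2 there were 2 called higher. The summed level of the list went from 15.2 to 17.7 CPM in LM1 to 57.7 to 63.6 CPM in LM1-LM, and Dcn, Lum, Thy1 and Dpt were at the floor in both lines.

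The largest decrease by the rule for named genes was in Dsp, which encodes desmoplakin, the protein that anchors keratin filaments to desmosomes. Dsp lies on chromosome 13 at 38151294 to 38198577 on the plus strand. Dsp was at 30.2, 33.4 and 33.3 CPM in LM1 and at 0.73, 0.96 and 0.89 CPM in LM1-LM. The log2 fold change was -5.23 ± 0.12 (adjusted p = 2.4e-26). All 3 LM1-LM cultures were far below all 3 of LM1. In bulk RNA, fewer cells with the transcript and less transcript per cell cannot be told apart. On a desmosome list that was likewise drawn up after the values had been seen, Dsp and Jup were the 2 called members of 11 tested, both lower, beside 5.26% lower of all genes. Jup, the gene of plakoglobin, which links desmoplakin to the desmosomal cadherins, went from 115 ± 3.24 to 94.7 ± 1.36 CPM (log2 fold change -0.27 ± 0.04, adjusted p = 2.1e-05). Pkp2, the plakophilin gene of simple epithelia, was at 80.6 ± 1.53 CPM in LM1 and 84.1 ± 4.27 CPM in LM1-LM (adjusted p = 0.43).

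On the epithelial list 4 of 12 tested members were lower and 0 were higher in edgeR's quasi-likelihood test, beside 5.26% and 5.64% of all genes, with a median log2 fold change of -0.17, which was -0.05 without LM1 replicate 2 and -0.06 over 22 members with no filter on low counts. Besides Dsp these were the keratin genes Krt7, from 9.51 ± 0.56 to 5.65 ± 0.36 CPM (log2 fold change -0.75 ± 0.09, adjusted p = 6.0e-08), Krt18, from 229.7 ± 4.4 to 191 ± 8.5 CPM (-0.27 ± 0.03, adjusted p = 3.0e-07), and Krt8 at -0.07 ± 0.02 (adjusted p = 0.025). The call of Krt8 was lost when LM1 replicate 2 or 3 or LM1-LM replicate 2 or 3 was left out, with only the 6 libraries and with no filter on low counts (adjusted p from 0.067 to 0.13). On the mesenchymal list 5 of 22 tested members were higher and 1 was lower, beside the same shares of all genes, and 3 were lower without LM1-LM replicate 3. The largest of the increases was Acta2, the smooth muscle actin gene, at 0.46, 0.18 and 0.14 CPM in LM1 and at 1.94, 1.62 and 1.59 CPM in LM1-LM (log2 fold change 2.73 ± 0.33, adjusted p = 1.1e-07). Fn1, the fibronectin gene, rose from 6.08 ± 0.97 to 12 ± 1.31 CPM (0.97 ± 0.11, adjusted p = 1.2e-08). Sparc, Axl and Vim rose by 0.17, 0.11 and 0.07 on the log2 scale, and Tgfbi fell by 1.09, a call that was lost without LM1 replicate 2 (-0.78, adjusted p = 0.069). The transcription factors Snai1, Twist1, Zeb1 and Zeb2 did not pass, with log2 fold changes of 0.04, 0.01, -0.06 and 0.09.

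Matrix and surface genes outside the collagens included several of the largest decreases. Serpine2 encodes protease nexin-1, a secreted inhibitor of thrombin and urokinase. It was at 43.9, 49.0 and 47.0 CPM in LM1 and at 11.9, 11.6 and 9.70 CPM in LM1-LM, a log2 fold change of -2.07 ± 0.06 (adjusted p = 2.5e-24). Vcan, the gene of the matrix proteoglycan versican, was at 5.88, 5.19 and 5.30 CPM in LM1 and at 0.43, 0.75 and 0.70 CPM in LM1-LM (-3.11 ± 0.19, adjusted p = 1.5e-14). Sulf2, an extracellular sulphatase that trims heparan sulphate, went from 13.4 ± 1.72 to 4.78 ± 1.27 CPM (-1.49 ± 0.12, adjusted p = 4.2e-12), and Alcam, an adhesion receptor of the immunoglobulin family, from 6.73 ± 0.56 to 2.18 ± 0.21 CPM (-1.62 ± 0.15, adjusted p = 3.3e-10). Bmp7, a ligand of the bone morphogenetic protein family, was at 2.58, 2.35 and 2.67 CPM in LM1 and at 0, 0 and 0.23 CPM in LM1-LM.

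The regions just upstream of 4 genes with large changes are shown as the sequence from which their transcription starts, 2 for genes that fell (Dsp and Vcan) and 2 for genes that rose (Col3a1 and Arhgap30, which encodes a GTPase-activating protein). They are the 250 bases before the RefSeq start on the strand of the gene (GRCm38.p6), with each CG dinucleotide, the site of DNA methylation, in capitals. Methylation was not measured. The Dsp region is chr13:38151044-38151293 on the plus strand, the Vcan region chr13:89742513-89742762 on the minus strand, the Col3a1 region chr1:45311288-45311537 on the plus strand and the Arhgap30 region chr1:171388710-171388959 on the plus strand.
Dsp: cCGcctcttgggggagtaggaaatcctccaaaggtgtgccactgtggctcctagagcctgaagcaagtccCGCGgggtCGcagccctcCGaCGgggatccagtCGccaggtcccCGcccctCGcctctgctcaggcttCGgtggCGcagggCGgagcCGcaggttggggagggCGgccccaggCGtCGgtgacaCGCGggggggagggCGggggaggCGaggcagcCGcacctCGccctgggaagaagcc
Vcan: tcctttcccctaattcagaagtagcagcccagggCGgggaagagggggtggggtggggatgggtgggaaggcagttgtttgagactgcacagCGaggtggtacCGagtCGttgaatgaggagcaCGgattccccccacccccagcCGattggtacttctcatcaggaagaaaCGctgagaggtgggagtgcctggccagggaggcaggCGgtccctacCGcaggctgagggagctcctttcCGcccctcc
Col3a1: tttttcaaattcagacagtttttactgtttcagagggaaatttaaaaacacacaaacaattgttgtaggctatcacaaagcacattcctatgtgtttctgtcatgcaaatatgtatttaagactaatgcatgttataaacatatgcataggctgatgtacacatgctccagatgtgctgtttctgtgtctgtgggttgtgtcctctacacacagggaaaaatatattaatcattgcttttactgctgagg
Arhgap30: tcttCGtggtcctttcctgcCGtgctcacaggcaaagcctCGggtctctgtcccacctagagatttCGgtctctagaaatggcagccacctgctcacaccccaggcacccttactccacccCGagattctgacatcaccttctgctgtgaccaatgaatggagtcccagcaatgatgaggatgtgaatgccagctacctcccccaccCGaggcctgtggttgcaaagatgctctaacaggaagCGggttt
CG occurred 22 times upstream of Dsp, 10 times upstream of Vcan, 7 times upstream of Arhgap30 and 0 times upstream of Col3a1. Of the 32851 promoter regions of the same length in the table, 14.8% had at least as many CG as Dsp and 37.8% at least as many as Vcan. The shares were 46.3% for Arhgap30 and 100% for Col3a1, and the median was 6. The letters CACGTG, which read the same on both strands and are a binding motif of MYC, were in none of the 4 regions and in 6.02% of all.

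**Figure D2:**
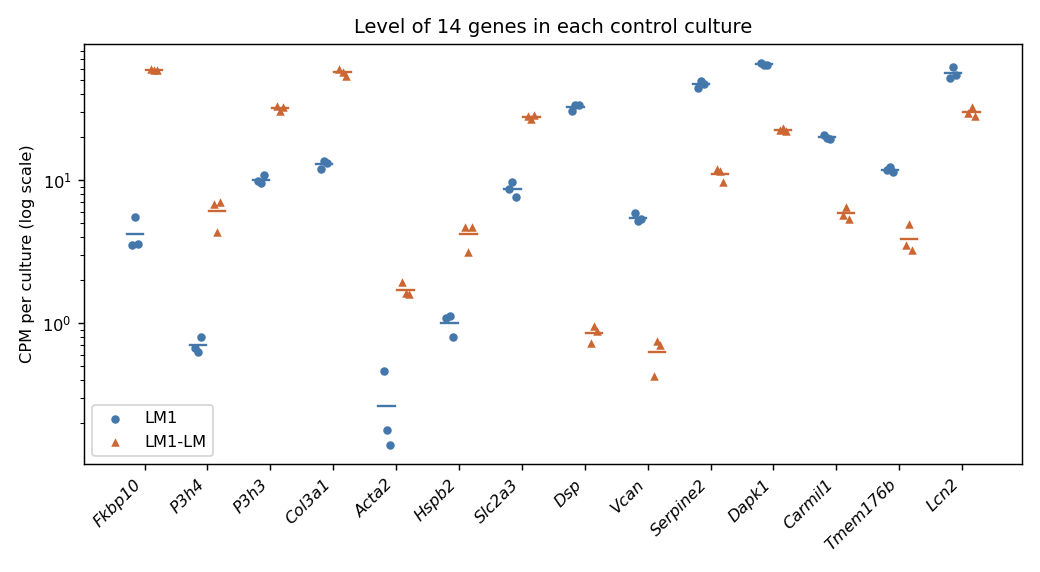
Points are the CPM of 14 genes in each control culture on a log axis, circles for LM1 and triangles for LM1-LM, and the short lines are the means of 3 cultures. The 2 lines' cultures are separated for every gene shown, by the widest margins for Fkbp10 and Dsp. For most of these genes the rule for named genes required that separation.

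On the list of proteases and their inhibitors, which does not hold Serpine2, 7 of 28 tested members were higher and 1 was lower, beside 5.64% and 5.26% of all genes. Adamts1, a secreted protease that cleaves versican, went from 19.8, 19.1 and 18.3 CPM in LM1 to 39.4, 35.4 and 35.3 CPM in LM1-LM (log2 fold change 0.94 ± 0.06, adjusted p = 7.4e-15). Mmp2, the gelatinase A gene, went from 38.3 ± 2.14 to 55.0 ± 0.47 CPM (0.52 ± 0.05, adjusted p = 6.6e-10), and Adam8, which encodes a membrane-bound protease, Htra1 and Timp1 rose by 0.40, 0.23 and 0.25 on the log2 scale. The called decrease was Plau, the urokinase gene, at -0.17 (adjusted p = 0.029), and the list had no called decrease with only the 6 libraries or without LM1 replicate 1, LM1 replicate 3 or LM1-LM replicate 1. On the integrin list 5 of 15 tested members were higher and 2 were lower, beside the same shares of all genes. Without single cultures 1 to 3 were higher and 2 to 3 lower, and with only the 6 libraries 1 and 1. No balance of directions is read from this list. Itgb7, whose product pairs with the alpha 4 and alpha E chains, rose from 138 ± 5.3 to 206 ± 13.3 CPM (0.58 ± 0.03, adjusted p = 1.9e-15) and Itgb5, a vitronectin receptor chain, fell from 93.5 ± 3.28 to 77.3 ± 5.45 CPM (-0.28 ± 0.04, adjusted p = 2.0e-05). Vcam1, an adhesion molecule for integrins on leukocytes, was at 4.43, 4.11 and 3.75 CPM in LM1 and at 8.18, 7.65 and 5.97 CPM in LM1-LM (0.83 ± 0.13, adjusted p = 2.1e-05).

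Slc2a3, which encodes the glucose transporter GLUT3, was at 8.61, 9.71 and 7.55 CPM in LM1 and at 28.1, 26.5 and 28.4 CPM in LM1-LM (log2 fold change 1.68 ± 0.11, adjusted p = 9.2e-14). The small heat shock protein genes Hspb2 and Hspb7 rose by 2.05 ± 0.21 and 1.40 ± 0.05 on the log2 scale, Hspb7 from 40.2 ± 1.21 to 106 ± 2.7 CPM. Cryab, which overlaps Hspb2 on the opposite strand and encodes another protein of this family, went from 44.9 ± 0.30 to 89.0 ± 1.93 CPM (0.99 ± 0.04), and reads in the shared stretch cannot be told apart because the strand setting of the counting is not given in the sources used here. Faxc, Arhgap29, Shfl, Elovl7, Mtmr11, Serinc2, Ankrd6 and Nlrc3 were also among the 15 largest increases, with log2 fold changes from 1.66 to 2.53. Of these, Arhgap29 encodes a GTPase-activating protein, Elovl7 a fatty acid elongase and Shfl an interferon-inducible antiviral factor. Outside the rule for named genes and chosen after the values had been seen, Arhgap30 went from 0.15, 0.18 and 0.28 CPM in LM1 to 5.21, 5.65 and 6.16 CPM, in LM1-LM, and Il17b, a cytokine gene of the interleukin 17 family, from 0.05, 0.05 and 0.23 CPM to 5.51, 5.36 and 4.29 CPM.

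Dapk1, a calmodulin-dependent kinase that promotes cell death, was at 65.6, 63.3 and 63.8 CPM in LM1 and at 22.3, 23.1 and 21.9 CPM in LM1-LM (log2 fold change -1.52 ± 0.05, adjusted p = 8.5e-23). Carmil1, a regulator of actin capping protein, fell from 19.9 ± 0.60 to 5.87 ± 0.59 CPM (-1.76 ± 0.08, adjusted p = 1.6e-18), and Hr, a corepressor of nuclear receptors, from 17.1 ± 0.57 to 5.15 ± 0.64 CPM (-1.73 ± 0.08, adjusted p = 6.9e-18). Mpp3, a scaffold protein, fell by 2.20, Zbtb7c by 1.81, the decoy death receptor Tnfrsf26 by 1.75, and Alpl, tissue-nonspecific alkaline phosphatase, by 1.70 on the log2 scale. Tmem176b fell by 1.59, Lrrc75b by 1.55 and Ttll7, a tubulin polyglutamylase, by 1.48. Orm1, which encodes a plasma glycoprotein of the acute phase, went from 9.50 ± 0.96 to 3.21 ± 0.36 CPM (-1.56 ± 0.12, adjusted p = 5.5e-12), and Lcn2, lipocalin 2, was at 51.8, 61.6 and 53.7 CPM in LM1 and at 29.3, 32.6 and 28.2 CPM in LM1-LM (-0.89 ± 0.06, adjusted p = 2.4e-13). Ceruloplasmin (Cp) and clusterin (Clu), named after their values had been seen, fell by 0.84 and 0.70 on the log2 scale, Cp from 82.7 ± 1.4 to 46.2 ± 2.0 CPM and Clu from 70.9 ± 1.2 to 43.7 ± 1.5 CPM.

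With detection set at 20 counts or more in each culture of a line and the floor at 3 or fewer in each, 8 genes were detected in LM1 and at the floor in LM1-LM, and 0 the other way round. Lpl, lipoprotein lipase, had 68, 76 and 60 counts in LM1 and 0, 0 and 0 in LM1-LM. Set against the floor of 3 counts per library this is an at least 24.8-fold lower level. The corresponding bounds were at least 40.5-fold lower for Col4a5, at least 26.1-fold for Tex101, a germ cell surface protein, at least 21.4-fold for the neuronal intermediate filament gene Ina, at least 11.1-fold for Rasef, at least 9.83-fold for Rangrf, at least 9.22-fold for Cdcp1, a transmembrane substrate of SRC kinases, and at least 8.98-fold for Shtn1. Rangrf overlaps Slc25a35 and Ina overlaps Nt5c2, each on the opposite strand, and Col4a5 overlaps Gm15268 and Gm15282. Among the other 8 lines compared, Rangrf was at 11.0 CPM or more and Col4a5 at 38.5 CPM or more in each. The other 6 genes were low elsewhere too. LM2-LM had low means of Lpl (0.56 CPM, against 15.8 CPM in LM2), Cdcp1 (0.07 against 11.6 CPM), Rasef (0.22 against 15.4 CPM) and Tex101 (0.04 against 13.4 CPM). In the 3 lines MYAZ16_1e, MYAZ12_3i and MYAZ6_6g, Cdcp1, Rasef, Tex101, Ina and Shtn1 were at 0.57 CPM or less on average.

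Of the 266 genes called at 2-fold, 32 formed 18 pairs of neighbours among the tested genes that changed in the same direction, which is a description and was not tested. Tmem176a and Tmem176b on chromosome 6, whose ends overlap on opposite strands, fell by 1.34 and 1.59 on the log2 scale. The acute phase genes Orm1 and Orm3 on chromosome 4 fell by 1.56 and 1.35, and Ctla2a and Ctla2b, cysteine protease inhibitors on chromosome 13, by 1.33 and 1.06. Members of these last families are near-identical copies, so the split of reads between them is uncertain. Carmil1 and Cmah, 46608 bases apart on chromosome 13, fell by 1.76 and 1.76, and Ntn1 and Pik3r5, 31297 bases apart on chromosome 11, rose by 1.02 and 2.70. In windows of 25 consecutive tested genes, the median log2 fold change lay between -0.18 and 0.12, and the lowest was that of the 15 tested genes of the mitochondrial genome. Among the autosomes the share called was highest on chromosome 15, where 31 of 554 genes were higher and 58 lower, Myc among the latter, beside 5.64% and 5.26% of all genes tested. Chromosome 6 came next, with 51 higher and 53 lower of 690.

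Xist, the RNA that coats the inactive X chromosome, was at 1.13, 1.26 and 0.89 CPM in LM1 and at 0, 0 and 0.09 CPM in LM1-LM (log2 fold change -5.00 ± 0.69, adjusted p = 1.7e-06), and it was at 80.7 CPM in Myc310. Kdm5d and Uty of the Y chromosome had no count in either line. Erdr1, a gene of the region shared by X and Y that the annotation places on Y, was tested and stood at -0.17 ± 0.05 (adjusted p = 0.015). Myc, the oncogene of the founding mouse model, went from 1165 ± 10.4 to 1074 ± 29.8 CPM (-0.12 ± 0.03, adjusted p = 0.0013), and transcripts of the transgene and of the resident gene cannot be told apart in these counts. Of 17 tested genes of the MYC network, 2 were higher and 3 were lower, beside 5.64% and 5.26% of all genes. The largest change was in Mxd4, a repressor that competes with MYC for its partner MAX, which fell from 32.1 ± 2.43 to 20.2 ± 1.02 CPM (-0.67 ± 0.06, adjusted p = 9.5e-11).

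**Figure D3:**
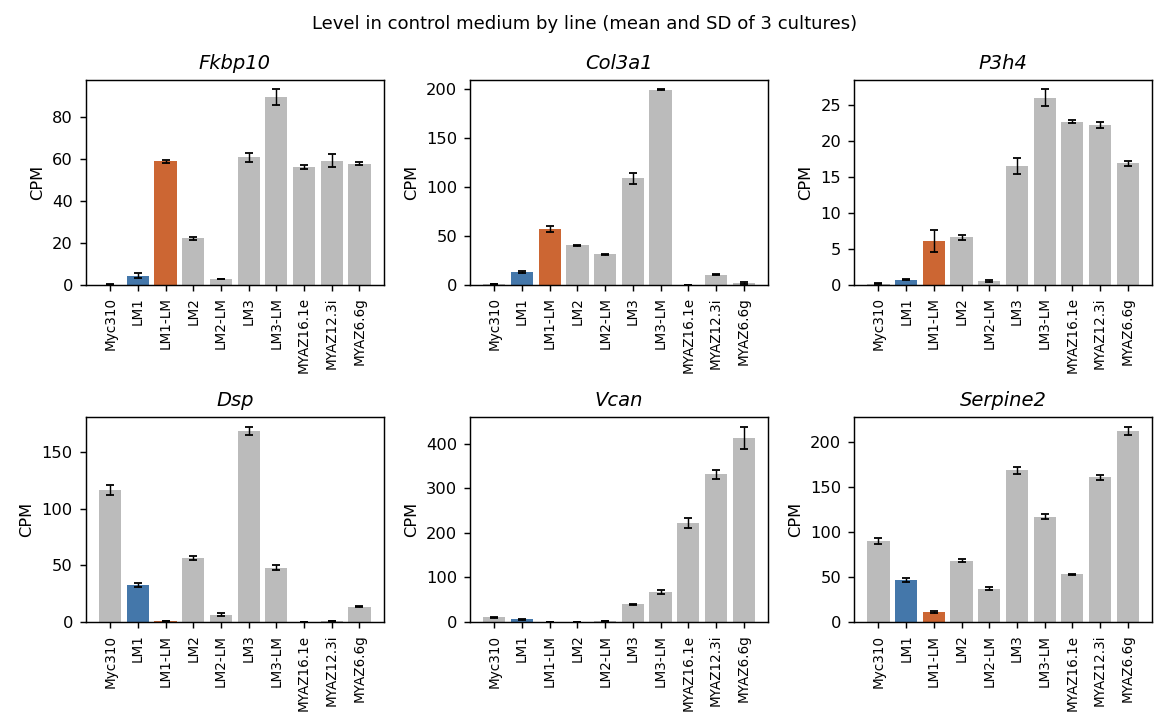
Bars are the mean CPM of 6 genes in control medium in each of 10 lines, and error bars are the SD of 3 cultures; LM1 is blue and LM1-LM orange, and each panel has its own scale from 0. Fkbp10 rises from Myc310 over LM1 to LM1-LM, and Serpine2 is lowest in LM1-LM.

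LM1 had a lower mean than Myc310 in 13 of the 15 largest decreases and a higher mean than Myc310 in 10 of the 15 largest increases. These counts share the LM1 libraries with the comparison and are given as a description. Dsp was at 117 ± 4.4 CPM in Myc310, 32.3 CPM in LM1 and 0.86 CPM in LM1-LM, and Fkbp10 was at 0.01, 4.21 and 58.9 CPM. Dsp was lower still than in LM1-LM in MYAZ16_1e (0.13 CPM) and MYAZ12_3i (0.58 CPM). LM1-LM had the lowest mean of the 10 lines compared, which leave out MYAZ12_3i_NDI1, in 10 of the 15 decreases and the highest mean in 2 of the 15 increases, Slc2a3 and P3h3. The genes were chosen by their LM1-LM values against LM1, which favours such ranks. Serpine2 was at 37.1 CPM or more in each of the other 9 lines compared, and Carmil1 at 18.2 CPM or more. Fkbp10 was at 58.9 ± 0.60 CPM in LM1-LM, 60.8 ± 2.15 CPM in LM3 and 59.2 ± 3.16 CPM in MYAZ12_3i, another line of the series, and the differences were smaller than the SD of the latter 2 lines.

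In the other lung-derived lines, LM2-LM had a higher mean than LM2 in 5 of the 15 increases and a lower mean in 12 of the 15 decreases, and LM3-LM against LM3 gave 11 and 11. The shares of all genes that were higher or lower in these pairs are not given here. These counts are therefore a description and not read as a shared trait. These lines have no library in common with LM1 or LM1-LM, and the study treats LM2 and LM3 as replicates of LM1 and LM2-LM and LM3-LM as replicates of LM1-LM, without naming the line from which LM2-LM or LM3-LM came. Dsp was lower in both pairs, at 56.4 CPM in LM2 and 6.44 CPM in LM2-LM and at 169 CPM in LM3 and 47.8 CPM in LM3-LM. Fkbp10 went opposite ways, from 22 CPM in LM2 to 2.44 CPM in LM2-LM and from 60.8 CPM in LM3 to 89.4 CPM in LM3-LM, and P3h4 did so too, from 6.55 to 0.48 CPM and from 16.4 to 26.0 CPM. The decreases that went the same way in both pairs were 8 in number by the order of the means, which was not tested, Dsp, Serpine2, Zbtb7c, Carmil1, Hr, Alpl, Lrrc75b and Ttll7. Between LM3 and LM3-LM the means of Carmil1 (23.8 ± 0.99 and 23.3 ± 1.76 CPM) and of Ttll7 (10.7 ± 1.44 and 9.16 ± 1.64 CPM) were within about 1 SD of each other. Of the increases, Elovl7 was at 6.38 ± 0.55 and 6.94 ± 0.62 CPM in LM2 and LM2-LM, also within about 1 SD, and at 6.12 ± 0.17 and 7.19 ± 0.15 CPM in LM3 and LM3-LM, while Arhgap29 was under 0.18 CPM on average in all 4 lines.

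Genes of cysteine and glutathione metabolism, the subject of the study, were called at a share near that of all genes. Glutathione is made from glutamate, cysteine and glycine, and its cysteine is taken up as cystine through the transporter encoded by Slc7a11 or made from methionine through the enzymes CBS and CTH. Of 27 tested members of the list 2 were higher and 1 was lower, 11.1% against 10.9% of all genes, and without single cultures 1 to 2 were higher and 1 to 2 lower. Gsr, which encodes glutathione reductase, was at 168, 177 and 170 CPM in LM1 and at 190, 199 and 187 CPM in LM1-LM (log2 fold change 0.16 ± 0.03, adjusted p = 7.5e-05). Ethe1, a mitochondrial persulphide dioxygenase, rose by 0.21, a call that was lost in 4 of the 6 fits without a culture, and Mat2a, which makes S-adenosylmethionine, fell by 0.17 on the log2 scale. Cth was at 24.6 ± 0.59 and 24.4 ± 1.16 CPM in LM1 and LM1-LM, Slc7a11 at 10.4 ± 0.39 and 10.1 ± 0.65 CPM, and Gpx4, which removes lipid peroxides, at 226 ± 9.3 and 229.8 ± 6.6 CPM. Their log2 fold changes of -0.01 ± 0.07, -0.05 ± 0.09 and 0.02 ± 0.04 did not pass the test. Cbs was too low for a statement, at 0.14 ± 0.09 and 0.06 ± 0.07 CPM. Gclc, Gclm, Gss, Gpx1, Gpx3 and Chac1 did not pass either. NRF2 targets had 2 higher and 1 lower of 27 tested, and the amino acid response list 3 and 3 of 31, in which the largest called change was in Stc2, at 0.15, 0.23 and 0.14 CPM in LM1 and at 0 in each LM1-LM culture. Without LM1 replicate 2 the amino acid response list had 1 higher and 2 lower, and Asns and Ddit4 were no longer called. The NRF2 targets went to 4 higher and 0 lower without LM1-LM replicate 2 and to 3 and 2 without LM1-LM replicate 1.

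Among genes of glycolysis and the hypoxia response, 13 of 31 tested members were higher and 1 was lower, beside 5.64% and 5.26% of all genes, and the median log2 fold change was 0.10. Besides Slc2a3 these included Slc16a3, the lactate exporter MCT4, from 157, 162 and 158 CPM in LM1 to 229, 213 and 213 CPM in LM1-LM (0.46 ± 0.03, adjusted p = 5.5e-14), Pfkfb4, which controls the activator of phosphofructokinase, at 0.42 ± 0.10 (adjusted p = 0.0048, but 0.053 without LM1 replicate 1 and 0.052 with only the 6 libraries) and Car12, a membrane carbonic anhydrase, from 105 ± 2.2 to 132 ± 4.0 CPM (0.33, adjusted p = 1.5e-06). Ndrg1, a hypoxia-responsive gene, stood at 0.34 ± 0.11 (adjusted p = 0.042) and was not called without LM1-LM replicate 1 (0.20, adjusted p = 0.35), without LM1 replicate 2 or 3, or with only the 6 libraries. The glycolytic enzymes Pfkl, Pgk1, Tpi1, Pgam1, Aldoa, Ldha and Gapdh rose by 0.18, 0.16, 0.12, 0.12, 0.12, 0.11 and 0.07 on the log2 scale. The member that fell was Pfkfb3, at -0.19 (adjusted p = 0.00029), and Slc2a1, the widespread glucose transporter GLUT1, was at 275 ± 2.9 and 274 ± 12.8 CPM (adjusted p = 0.97). LM1-LM replicate 1, the library with fewer mitochondrial transcripts, was the highest of the LM1-LM cultures for 10 of the 13 genes that rose. Without it 10 members were higher and 2 lower, the median of the list was 0.05, and Slc16a3 stood at 0.42 (adjusted p = 1.1e-12). The mitochondrial transcripts themselves had a median log2 fold change of -0.19, with 0 of 13 called, and without LM1-LM replicate 1 the median was -0.06. With no filter on low counts 1 of them was called higher and 10 lower.

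**Figure D4:**
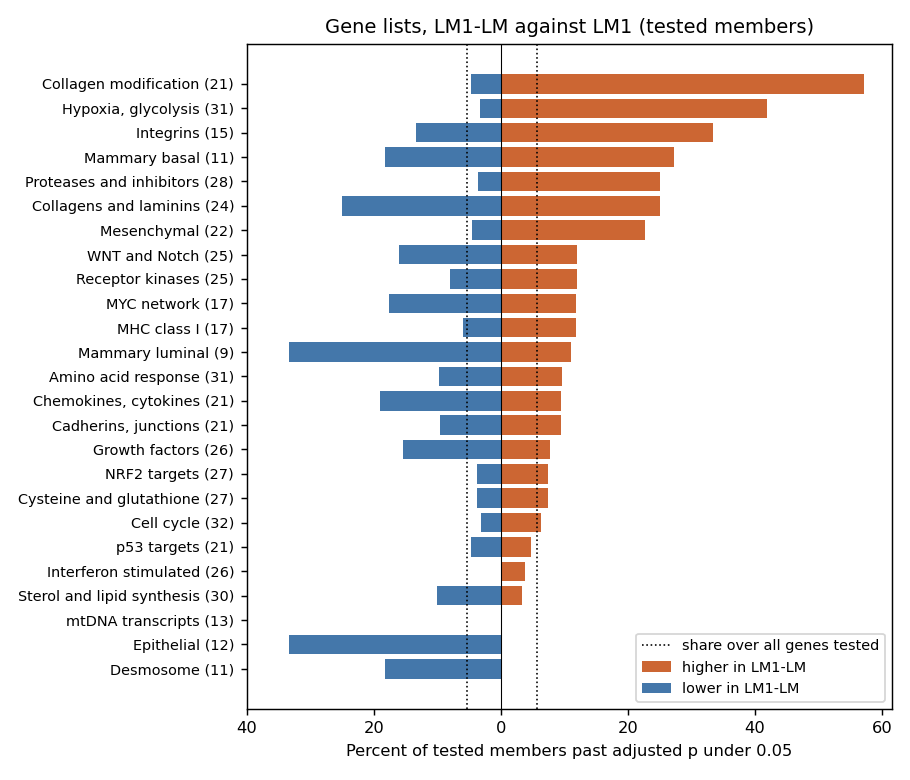
Bars give the percentage of tested members, for each gene list with 9 or more of them, that were higher (orange, right) or lower (blue, left) in LM1-LM at an adjusted p of 0.05, with the number tested in brackets, and dotted lines mark the shares over all genes tested, 5.64% and 5.26%. Among the lists drawn, collagen modification, a list drawn up after the values had been seen, and hypoxia and glycolysis extend farthest to the right. Luminal and epithelial genes extend farthest to the left among them, and Krt8 and Krt18 count in both of these lists.

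On the chemokine and cytokine list 2 of 21 tested members were higher and 4 were lower, where, as for each list that follows, the shares of all genes were 5.64% and 5.26%. Spp1, osteopontin, went from 335, 330 and 331 CPM to 257, 243 and 239 CPM (log2 fold change -0.43 ± 0.03, adjusted p = 3.5e-14) and Cx3cl1 from 16.2 ± 0.91 to 11.7 ± 0.45 CPM (-0.47 ± 0.08, adjusted p = 5.6e-05), while Ccl2 rose from 22.8 ± 1.6 to 28.8 ± 1.5 CPM (0.34, adjusted p = 7.5e-05). Of growth factors 2 of 26 were higher, among them the EGF receptor ligand Areg (0.58 ± 0.08, adjusted p = 2.3e-06), and 4 were lower. WNT and Notch genes had 3 higher and 4 lower of 25, with Wnt5b at 1.09 ± 0.23 and Notch1 at -0.39 ± 0.09 (-0.27 and no longer called without LM1 replicate 2), and receptor kinases 3 and 2 of 25, with Flt1 at 0.46 ± 0.05 and Ephb2 at -0.34 ± 0.04. Antigen presentation genes of MHC class I had 2 higher and 1 lower of 17, with H2-D1 at 0.19 ± 0.03. The lower member, Nlrc5, had 1, 3 and 6 counts in LM1 and 1, 0 and 0 in LM1-LM, and lost its call with DESeq2 (adjusted p = 0.069), with the 24 libraries of 4 lines (0.11), with the replicate block (0.050) and without LM1 replicate 2 or 3 or LM1-LM replicate 2 or 3. Interferon-stimulated genes had 1 higher of 26, Bst2 at 0.17 ± 0.05, which was not called without LM1 replicate 2 or LM1-LM replicate 1, with only the 6 libraries or with the 24 libraries of 4 lines (adjusted p from 0.051 to 0.13). Cell cycle genes had 2 higher and 1 lower of 32, p53 targets 1 and 1 of 21, and sterol and lipid synthesis genes 1 and 3 of 30. Luminal mammary genes had 1 higher and 3 lower of 9. The latter were Gata3, at -0.17 ± 0.04, and Krt8 and Krt18, which the epithelial list also holds. Of these 2 were lower without LM1 replicate 2 or 3 or LM1-LM replicate 2 or 3, with only the 6 libraries and with no filter on low counts. Basal genes had 3 higher and 2 lower of 11. Acta2 stood at 2.73, Lgr6 at 0.46, Vcan at -3.11 and Mylk at -0.53 ± 0.09. Lgr6 lost its call in 5 of 14 alternatives. Of 21 cadherin and junction genes 2 were higher and 2 lower, of 5 germline genes 1 and 1, and of 8 imprinted genes 0. Leukocyte markers had 1 higher of 2 tested, the lysosomal protein gene Cd68, and endothelial and lung epithelial markers had 0 of 4 and 0 of 3. An endothelial marker was called lower without LM1 replicate 2 or LM1-LM replicate 1, with DESeq2, with the 24 libraries of 4 lines and with no filter on low counts. Such small counts moved with single cultures. WNT and Notch genes had 1 higher and 4 lower without LM1 replicate 1, 2 and 2 without LM1 replicate 2, and 3 and 6 without LM1-LM replicate 3. Sterol and lipid synthesis genes had 1 higher and 1 lower without LM1 replicate 2, 1 and 5 without LM1-LM replicate 1, and 3 and 1 without LM1-LM replicate 3, so no balance of directions is read from them. Growth factors had 1 higher without LM1 replicate 1 or LM1-LM replicate 1, and cadherin and junction genes had 4 higher without LM1-LM replicate 1. Over the 6 fits without a culture, cell cycle genes had 1 to 3 higher and 0 to 2 lower, p53 targets 0 to 1 and 1, receptor kinases 2 to 3 and 1 to 3, and MHC class I genes 1 to 3 and 0 to 1.

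The same pair of lines was also compared without cysteine and cystine for 6 h, in 6 libraries that the control comparison did not use. There 2218 of 12925 genes tested (17.2%) differed between LM1-LM and LM1 in edgeR's test, 8.59% higher and 8.57% lower in LM1-LM. Of the 1470 genes called in control medium and tested here, 1377 (93.7%) had the same sign, 891 (60.6%) were called in that direction, which is 40.2% of the calls in deprived medium, and 6 were called in the opposite one. Of the 234 tested genes that were at least 2-fold apart in control medium, 229 (97.9%) had the same sign and 182 (77.8%) were called. Fkbp10 was at 4.57 ± 0.40 CPM in deprived LM1 and 47.1 ± 0.57 CPM in deprived LM1-LM, Dsp at 33.8 ± 1.38 and 1.14 ± 0.34 CPM, and Serpine2 at 40.3 ± 0.48 and 10.5 ± 1.14 CPM. Col3a1 was lower in both lines than in control medium, at 6.94 ± 0.57 and 24.1 ± 0.65 CPM, with a log2 fold change of 1.80 (adjusted p = 8.1e-11). A difference between media in the size of the line effect was called for 103 of 13400 genes (0.769%).

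**Figure D5:**
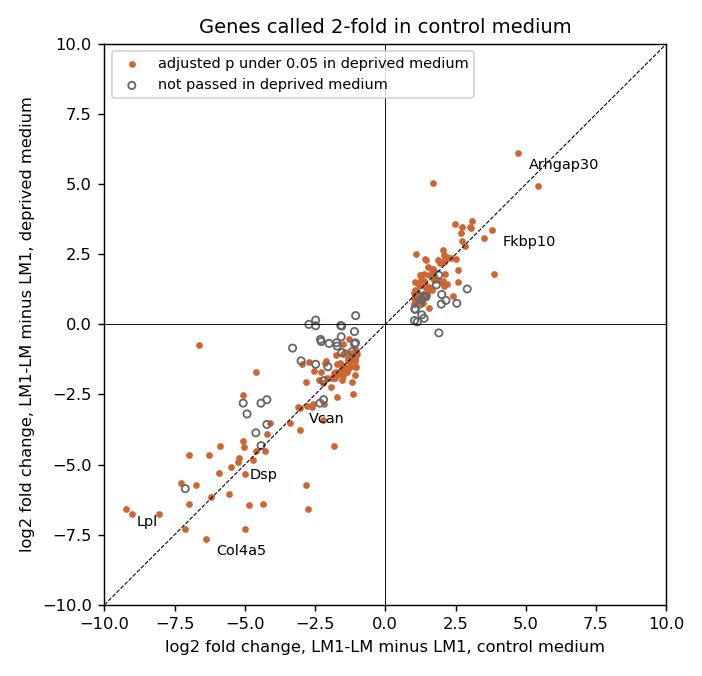
Each point is a gene called at 2-fold or more in control medium and tested in deprived medium, with its log2 fold change (LM1-LM minus LM1) in control medium on the x axis and in deprived medium on the y axis; filled points passed in deprived medium and the dashed line marks equal values. Of the 234 genes, 229 have the same sign in both media.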

How the data were processed

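RNA was taken from cultures of mouse mammary tumour lines with a column kit and DNase, and directional poly(A) libraries were sequenced in paired ends. The authors aligned reads with STAR to GRCm38 and quantified genes with RSEM, and deposited 1 table of whole-number counts per gene. Their processing notes also name DESeq2 1.38.3 and R 4.2.2. Of 28454 gene identifiers, 28407 were in GENCODE release M21, from which positions were taken, and the others held 0.0106% of the counts. The strand setting of the counting is not given in the sources used here.

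The deposited counts were tested with edgeR 4.0.16 (quasi-likelihood, two-sided, R 4.3.3) after TMM scaling and filterByExpr, with Benjamini-Hochberg adjustment over all genes tested and a threshold of 0.05. The 30 control libraries of 10 lines shared the estimate of spread, with 20 residual degrees of freedom. The 3 control libraries of a further line, MYAZ12_3i_NDI1, were left out of the fit and of all comparisons between lines, and only the 6 libraries of LM1 and LM1-LM entered the contrast. Deprived cultures were fitted in 12 libraries and the interaction of line and medium in 24. Printed CPM were scaled over all 45 libraries, and the fitted fold changes used edgeR's default prior count. CPM are not divided by gene length, so levels are compared within a gene only. A gene was at the floor with 3 counts or fewer in each culture of a line, and such floors cover counting error only. The depth of 19521444 to 24258746 counts per library limits what is said of genes under 1 CPM.

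The genes named are the 15 largest increases and 15 largest decreases among called genes whose log2 CPM averaged 1 or more and whose cultures did not overlap between lines, gene models with only Gm or Rik numbers left out. Up to 4 called members of each gene list with the largest changes, the genes the study names for cell lines, the genes lost to the floor and label checks (Myc, Xist and Y-linked genes) were added. Other list members, neighbours and genes said to be so were named after their values had been seen, as the lists of collagen modification and desmosome genes were drawn up. The comparison, the other lists and the tests were chosen with earlier results of these data known. Alternatives were RLE and upper-quartile scaling, other filters on low counts, DESeq2 1.42.0, other sets of libraries, a replicate block and leaving out each culture. Same-numbered cultures of LM1 and LM1-LM did not deviate together, so the numbers were not used as pairs. Promoter sequences are from RefSeq (GRCm38.p6). Those of Fkbp10 and P3h4 were not used here. Results for a few items are not reported here.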

Additional observations from a re-analysis of the deposited data

Results flagged for a closer look

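For 7 of the named genes the difference between LM1-LM and LM1 depended on the medium, by edgeR's test of the interaction with Benjamini-Hochberg adjustment over all genes. Over all genes tested 103 of 13400 (0.769%) were called. Most named genes were chosen by their control values, which also enter the interaction. That choice favours a smaller difference in deprived medium. Values are log2 fold changes of LM1-LM against LM1, and the interaction is deprived minus control medium. Myc was 0.12 lower in LM1-LM on this scale in control medium and 0.50 lower in deprived medium, an interaction of -0.378 (adjusted p = 8.4e-05). Alpl, which encodes an alkaline phosphatase, went from -1.70 to -2.59, an interaction of -0.883 (adjusted p = 0.047). In Sulf2, the heparan sulphate sulphatase, the difference was smaller without cysteine and cystine, -1.49 and then -0.69 (0.806, adjusted p = 0.042). The same held for the adhesion molecule Vcam1, at 0.83 and 0.16 (-0.670, adjusted p = 0.016), and for the protease Adamts1, at 0.94 and 0.61 (-0.330, adjusted p = 0.019). Osteopontin (Spp1) stood at -0.43 and -0.24 (0.193, adjusted p = 0.015), and the MAX partner Mxd4 at -0.67 and -0.34 (0.333, adjusted p = 0.041). Each of these genes kept its direction.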

How the results depend on the processing

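No named gene changed direction with a call under any alternative run. The balance of called members turned with single cultures for some lists, among them integrins and sterol and lipid synthesis. The number of genes called in control medium lay between 1092 (only the 6 libraries, with 4 residual degrees of freedom) and 1499 (no filter on low counts), and DESeq2 called 1457 genes, 1385 of them shared with the 1504. Genes 2-fold apart were fewer with at least 10 counts in each of the 6 libraries, 63 higher and 46 lower. That filter leaves out genes near the floor in either line. It left 11401 genes tested, and 108 of the 266 genes called at 2-fold were still called so. With only the 6 libraries 86 genes were 2-fold lower. With a floor of 5 counts 1 gene was detected in LM1-LM alone, and with detection at 10 counts there were 3, against 15 in LM1 alone. Without single cultures, 1112 to 1287 genes were called, 598 to 687 higher and 514 to 651 lower, with 115 to 131 and 117 to 129 at 2-fold. The deprived comparison gave 1610 to 2032. Of the named genes with a call, 24 of 111 lost it under at least 1 alternative and 0 of the 30 largest changes did.

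With the replicate number as a block 1488 genes were called, 1447 of them shared, and 2256 in deprived medium. Same-numbered cultures of the 2 lines had correlations of -0.05, 0.01 and 0.02 in their deviations from the line means, so the samples share only a number.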

Other observations

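A few transcripts outside the comparisons differed between cultures of the same line by more than any named gene, and none passed the test. The gene model ENSMUSG00000066632 had 868 counts in LM1-LM replicate 2 and at most 1 in each of the other 5 libraries. ENSMUSG00000095526 had 524, 945 and 7 counts in LM1 and 3076, 1668 and 1484 in LM1-LM. These were chosen after their values had been seen.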
